A study of Mus musculus with 12 samples.

Results

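Mme, Ide, Ece1, Ece2 and Ace encode 5 zinc metallopeptidases that can cleave amyloid-β, and their transcripts were followed across the cell classes of the mouse hippocampal region. The members were found by gene symbol, and all 5 were among the 32285 genes of the count matrices. The tissue was the left hippocampus of females. The 3xTg-AD mice carry human APP with the Swedish mutation and human tau P301L under the neuronal Thy1.2 promoter and were compared with WT littermates. There were 4 groups of 3 libraries, 3xTg-AD and WT at 6 months and 3xTg-AD and WT at 12 months, and replicates carry the library numbers 1 to 12. The sorted nuclei were profiled by snRNA-seq, which counts unique molecular identifiers (UMIs) at the 3′ ends of nuclear transcripts. By the study's methods each library came from a mouse of its own, so the spread between libraries includes that between mice.

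Amyloid-β is cut from APP and is removed by transport, by uptake into glia and by peptidases. Neprilysin, encoded by Mme, sits on the outer cell surface and also cleaves enkephalins and substance P. Endothelin-converting enzymes, encoded by Ece1 and Ece2, belong to the same family and cleave peptides at the surface, in endosomes or in secretory vesicles. Insulin-degrading enzyme, encoded by Ide, is largely cytosolic and encloses small peptides in a chamber. Angiotensin-converting enzyme, encoded by Ace, makes angiotensin II and has a pair of catalytic domains.

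The catalytic zinc of each enzyme is held by a short motif with a glutamate between histidines, and the coding DNA around it is shown because it sets out how the 5 genes are related. The bases are from GRCm38 with GENCODE annotation, on the coding strand from 5′ to 3′, and capitals mark the 5 codons of the motif. Mme (chr3:63241537-63386030, plus strand) holds it in coding sequence of exon 18 of 23, at chr3:63362006-63362050. Ide (chr19:37268743-37337852, minus strand) holds the motif in inverted order in exon 2 of 24, at chr19:37329121-37329165. Ece1 (chr4:137862237-137965229, plus strand) holds it in exon 17 of 20, at chr4:137957157-137957201. Ece2 (chr16:20629828-20646485, plus strand) holds it in exon 16 of 19, at chr16:20643875-20643919. Ace (chr11:105967945-105989964, plus strand) holds it in exons 8 and 20 of 25, at chr11:105972895-105972939 and chr11:105985079-105985123.
Mme: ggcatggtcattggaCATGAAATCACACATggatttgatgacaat
Ece1: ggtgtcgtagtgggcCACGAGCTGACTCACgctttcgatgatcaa
Ece2: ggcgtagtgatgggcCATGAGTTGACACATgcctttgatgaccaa
Ide: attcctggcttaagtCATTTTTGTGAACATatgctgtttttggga
Ace site 1: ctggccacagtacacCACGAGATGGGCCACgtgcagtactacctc
Ace site 2: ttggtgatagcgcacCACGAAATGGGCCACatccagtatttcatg
Ece1 and Ece2 were identical at 34 of these 45 bases, Mme and Ece2 at 33, and the Ace sites at 32. Mme and Ide shared 13 of 45. These stretches lie inside the genes, and the 3′ reads of the libraries do not test them.

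After the filters of the study, 184956 of 185643 nuclei remained, with 11352 to 19811 nuclei and 79155331 to 128303515 UMIs per library. Nuclei were put into classes by marker genes, so each class name stands for a marker gate ("astrocytes" are astrocyte-like nuclei), and 12.3% of nuclei carried no broad class. A further 21379 neurons had no clear transmitter gene. Nuclei outside the named classes held 25.3% of all UMIs and from 22.7% of the Mme UMIs to 28.4% of the Ace UMIs. Of 181379 distinct barcode sequences, 4216 occurred in more than 1 library. The human transgenes have no rows of their own, and mouse App ran from 528 to 648 CPM (UMIs per 1000000 UMIs of the library) with ranges of WT and 3xTg-AD that overlap within each age. The tissue also held nuclei with markers of striatum, thalamus and habenula, in shares that differed between libraries. Ambient RNA had not been subtracted from these counts.

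All 5 genes were detected in every library. In whole libraries, Mme had a lowest level of 10.1, a median of 16.03 and a highest level of 30.2 CPM. Ide ran from 51.3 through 55.1 to 58.5 CPM, Ece1 from 30.8 through 36.9 to 40.3, Ece2 from 60.1 through 74.1 to 85.5 and Ace from 2.64 through 3.90 to 5.12. Mme thus had the widest relative range between libraries and Ide the narrowest. The UMI totals behind these levels were 21983 for Mme, 67833 for Ide, 44670 for Ece1, 90103 for Ece2 and 4895 for Ace. Nuclear UMI counts may include intronic reads and are not scaled to length, so levels are compared within a gene and never between genes.

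**Figure D1:**
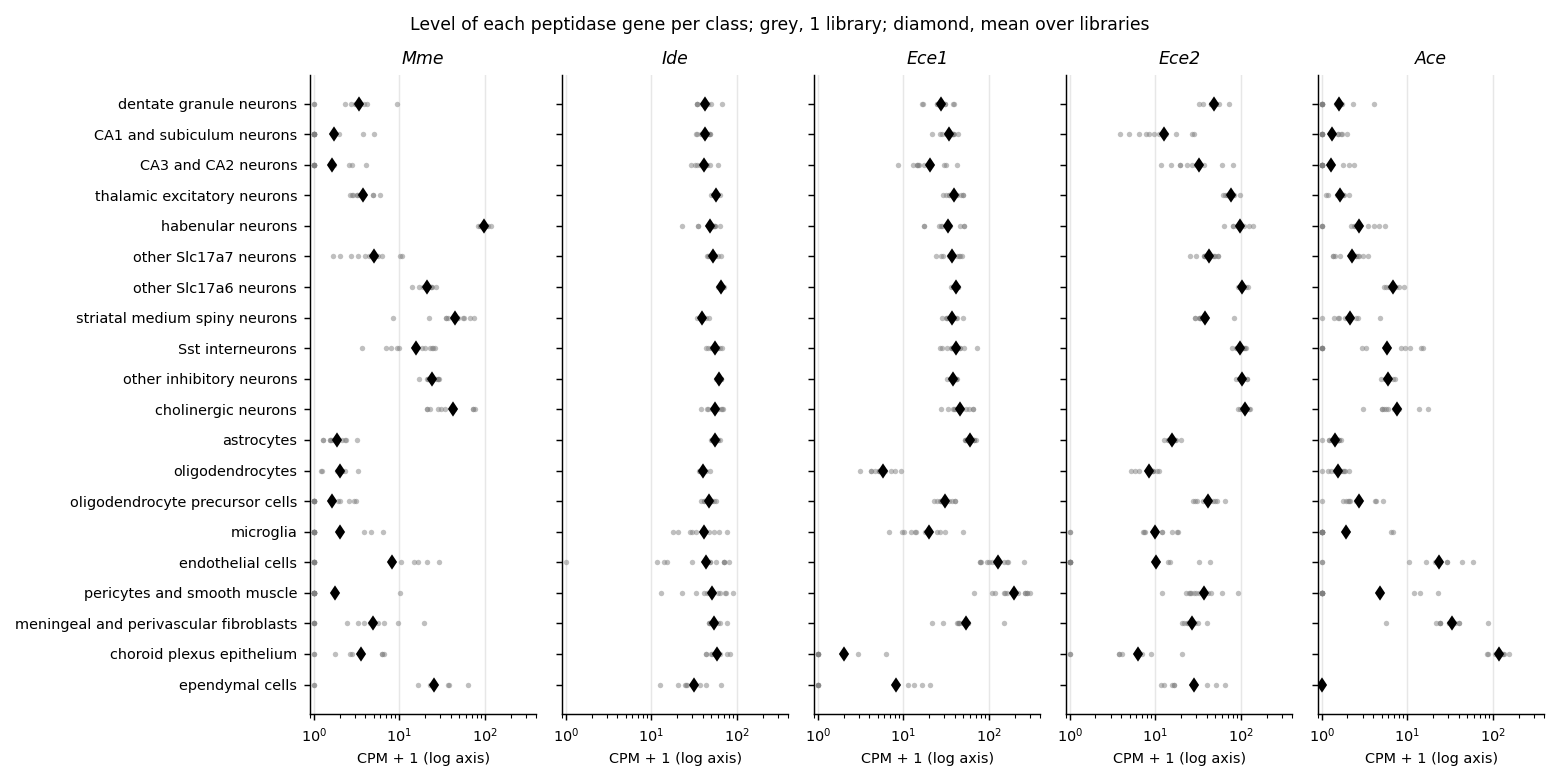
Level of the 5 peptidase genes in 20 cell classes, on a logarithmic axis of CPM + 1. Each grey point is a library with at least 20 nuclei of the class and each diamond is the mean over those libraries. Mme is highest in habenular neurons at a mean of 97.2 CPM, Ece1 in pericytes and smooth muscle at 197 and Ace in choroid plexus epithelium at 118, while the class means of Ide span only 30.9 to 64.6.

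Mme, the neprilysin gene, was higher in habenular, striatal and several other neuron classes than in the cell fields of the hippocampus. Habenular neurons had the highest level, with a lowest library of 81.0, a median of 98.4 and a highest of 115 CPM (97.2 ± 9.95, SD, n = 11). Striatal medium spiny neurons, the GABAergic projection neurons of the striatum, followed at 43.3 ± 19.4 CPM (SD, n = 11), with libraries from 7.50 through a median of 46.6 to 74.2. Habenular neurons exceeded medium spiny neurons in 10 of 10 libraries that held both (difference 1.35 in log2(CPM + 1), exact sign-flip permutation test, two-sided, p = 0.00195, adjusted p = 0.0309 over 95 neighbour pairs of all 5 genes). Cholinergic neurons lay at 41.4 ± 21.6 CPM and did not differ from medium spiny neurons beyond their spread (exact permutation test, adjusted p = 0.991).

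Lower in the order of Mme came other inhibitory neurons at 23.0 ± 3.66 CPM (n = 12), other neurons with Slc17a6 at 20.1 ± 3.41 and Sst interneurons at 14.8 ± 7.87. Ependymal cells, which are no neurons, had a mean of 24.7 ± 20.9 CPM from 33 UMIs, with libraries from 0 to 62.8 (n = 8). Thalamic excitatory neurons had only 2.74 ± 1.02 CPM. In the principal neurons of the hippocampus Mme was low, at 2.38 ± 2.23 CPM in dentate granule neurons, 0.71 ± 1.40 in CA1 and subiculum neurons and 0.65 ± 1.06 in CA3 and CA2 neurons. Glia lay in the same range, at 0.88 ± 0.55 CPM in astrocytes, 1.05 ± 0.53 in oligodendrocytes and 1.00 in microglia. Pvalb interneurons were too few for levels per library, with 93 nuclei in all, 39 Mme UMIs and 43.4 CPM over the pooled nuclei.

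Thinned to 1000 UMIs, the share of nuclei with a Mme UMI was 8.91% of habenular neurons (95% exact binomial interval 7.10 to 11.01), 4.76% of medium spiny neurons (4.38 to 5.16) and 2.11% of other inhibitory neurons (1.96 to 2.26). It was 1.89% of ependymal cells (0.866 to 3.55) and 0.94% of Sst interneurons (0.306 to 2.18), which rank in the other order by mean log level. In oligodendrocytes, which serve as a measure of free RNA, it was 0.097% (0.063 to 0.144). Without thinning, the shares of habenular, medium spiny and other inhibitory neurons and of oligodendrocytes were 41.8%, 26.9%, 12.97% and 0.212%, at median depths of 6694, 7158, 7453 and 1892 UMIs per nucleus. The intervals cover counting error only. Medium spiny neurons contributed 23.1% of all Mme UMIs against 7.59% of all UMIs of the series, a ratio of 3.05.

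Within the inhibitory neurons, medium spiny neurons had more Mme than the rest in 10 of 11 libraries, with a difference of 0.71 in log2(CPM + 1) (exact permutation test, adjusted p = 0.0248 over 30 class contrasts). The WT 12 months library 12, which had only 33 nuclei in the medium spiny gate, was the lowest. D1 medium spiny neurons, the direct-pathway kind, had less Mme than D2 medium spiny neurons, at 46.2 ± 17.3 against 54.7 ± 15.4 CPM, and were higher in 1 of 10 libraries (difference −0.28, exact permutation test, adjusted p = 0.0251). Excitatory neurons had less Mme than inhibitory neurons in all 12 libraries, at 12.0 ± 2.23 against 28.7 ± 10.1 CPM (difference −1.14, exact permutation test, adjusted p = 0.00366).

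Ece1 had its highest means in pericytes with smooth muscle cells and in endothelial cells. Pericytes and smooth muscle cells had a lowest library of 65.5, a median of 190.2 and a highest of 304 CPM (197 ± 80.4, n = 12). Endothelial cells, in which the enzyme makes endothelin, had 77.5, 112 and 255 CPM in the same terms (126 ± 51.4). The difference between these neighbours was within the spread, with pericytes higher in 9 of 12 libraries (0.60 in log2(CPM + 1), exact permutation test, adjusted p = 0.356). Endothelial cells exceeded astrocytes, at 58.9 ± 6.43 CPM, in 12 of 12 libraries (difference 1.00, exact permutation test, adjusted p = 0.0155). Layer 6 corticothalamic neurons, with too few libraries to enter the order, had 62.5 ± 12.6 CPM (n = 5), and astrocytes did not differ past the threshold from the next class, fibroblasts (exact permutation test, adjusted p = 0.512). These vascular levels rest on few molecules, 178 Ece1 UMIs in 726 pericyte nuclei and 109 in 673 endothelial nuclei.

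Along the oligodendrocyte lineage Ece1 was low in the mature cells. Oligodendrocyte precursor cells had 29.7 ± 5.73 CPM and oligodendrocytes 4.72 ± 1.80, with precursors higher in 12 of 12 libraries (difference 2.46, exact permutation test, adjusted p = 0.00366). Microglia at 18.7 ± 12.1 CPM also exceeded oligodendrocytes in 12 of 12 libraries (difference 1.63, exact permutation test, adjusted p = 0.0155). Choroid plexus epithelium had the lowest mean, 1.02 CPM. Excitatory and inhibitory neurons had 37.2 ± 4.13 and 37.1 ± 2.99 CPM (difference 0.00 with an SD of 0.09 between libraries, exact permutation test, unadjusted p = 0.979).

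Ece2, the relative of Ece1 that works in acidic vesicles, was highest in several classes of neurons. Cholinergic neurons had libraries from 92.0 through a median of 112 to 128 CPM (110 ± 11.2, n = 11). They were followed closely by other Slc17a6 neurons at 103 ± 7.34, other inhibitory neurons at 101 ± 8.16, Sst interneurons at 97.3 ± 10.9 and habenular neurons at 96.5 ± 20.5, and no neighbours among these 5 classes differed beyond their spread. A step came below them. Thalamic excitatory neurons at 74.8 ± 9.26 CPM were below habenular neurons in 10 of 11 libraries (exact permutation test, adjusted p = 0.0464), and dentate granule neurons at 47.0 ± 10.5 were below thalamic neurons in 10 of 11 (exact permutation test, adjusted p = 0.0309). By mean log2(CPM + 1), CA3 and CA2 neurons (4.79) ranked below oligodendrocyte precursor cells (5.34). CA1 and subiculum neurons (3.38) ranked below astrocytes (3.97).

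Medium spiny neurons, which had the second highest mean of Mme, were low in Ece2 for inhibitory neurons. Their level was 37.4 ± 15.3 CPM against 101 ± 8.17 in the remaining inhibitory neurons, lower in 11 of 11 libraries (difference −1.47, exact permutation test, adjusted p = 0.00419). D1 exceeded D2 medium spiny neurons in 10 of 10 libraries, at 33.5 ± 3.81 against 26.9 ± 2.405 CPM (difference 0.31, exact permutation test, adjusted p = 0.00732), the opposite direction to Mme. Among glia, precursors at 40.8 ± 10.8 CPM exceeded oligodendrocytes at 7.37 ± 1.80 in 12 of 12 libraries (difference 2.31, exact permutation test, adjusted p = 0.00366). Endothelial cells at 9.19 ± 14.3 CPM were below pericytes at 35.8 ± 21.6, with 1 of 12 libraries in the other direction (exact permutation test, adjusted p = 0.0114). The endothelial level rests on 9 Ece2 UMIs, with 7 of 12 libraries at 0, and the contrast did not pass without the WT libraries of 12 months (adjusted p = 0.0586, exact permutation test). The annotation holds a read-through gene on the same strand as Ece2, Gm49333, which has no row in the matrices.

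Ide was the most even of the 5 genes. Its class means ran from 30.9 CPM in ependymal cells, on 35 UMIs, to 64.6 CPM in other Slc17a6 neurons, whose libraries lay between 59.4 and 70.6. Neighbours in the order differed in 1 of 19 pairs, other Slc17a6 neurons over other inhibitory neurons in 12 of 12 libraries by 0.09 in log2(CPM + 1) (exact permutation test, adjusted p = 0.0155). Medium spiny neurons lay below the remaining inhibitory neurons, at 38.6 ± 3.25 against 60.4 ± 2.97 CPM, in 11 of 11 libraries (difference −0.64, exact permutation test, adjusted p = 0.00419). Dentate granule neurons at 41.7 ± 9.39, CA1 and subiculum neurons at 41.0 ± 5.44 and CA3 and CA2 neurons at 40.3 ± 8.29 CPM had means of Ide near that of medium spiny neurons. Precursors at 45.8 ± 5.63 CPM exceeded oligodendrocytes at 38.7 ± 3.40 in 10 of 12 libraries (difference 0.23, exact permutation test, adjusted p = 0.0186, and 0.0586 without the WT libraries of 12 months).

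Ace had its highest mean in the choroid plexus. The epithelium, which secretes cerebrospinal fluid, had a lowest library of 84.9, a median of 123 and a highest of 155 CPM (118 ± 24.0, n = 8). It held 10.8% of all Ace UMIs in 0.371% of all UMIs, a ratio of 29.0. Larger shares of the Ace UMIs lay in other inhibitory neurons, 30.1% in 24.8% of all UMIs, and in other Slc17a6 neurons, 18.5% in 12.95% of all UMIs. Fibroblasts followed at 32.1 ± 19.7 CPM and endothelial cells, where the enzyme acts in the lung and elsewhere, at 22.4 ± 16.3. Choroid plexus exceeded fibroblasts in 8 of 8 libraries (exact permutation test, p = 0.00781, which is the smallest that 8 libraries allow, adjusted p = 0.0742). After thinning, 12.8% of choroid plexus nuclei had an Ace UMI (95% exact interval 10.8 to 15.1) against 0.054% of astrocytes (0.025 to 0.102), and without thinning 39.4% against 0.124%, at median depths of 4504 and 2563 UMIs.

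The neighbouring ependymal cells, which line the ventricles, were at 0 Ace CPM in all 8 libraries with enough nuclei, and 1 UMI was found in all 494 nuclei. In the 7 libraries that held both classes, Ace had 116 ± 25.3 CPM in choroid plexus (exact permutation test, adjusted p = 0.0293). Endothelial cells exceeded pericytes, at 3.83 ± 7.35 CPM, in 10 of 12 libraries (exact permutation test, adjusted p = 0.0220), on 20 Ace UMIs in the endothelial and 3 in the pericyte nuclei. Without the WT libraries of 12 months this contrast did not pass (exact permutation test, adjusted p = 0.0753). In neurons Ace was low, at 4.92 ± 0.60 CPM in inhibitory neurons without the medium spiny kind and 1.13 ± 0.99 in medium spiny neurons, lower in 11 of 11 libraries (difference −1.58, exact permutation test, adjusted p = 0.00419). An antisense gene, Gm11651, overlaps Ace and had 570 UMIs against 4895 for Ace.

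Of the 35 class contrasts planned, 30 could be tested and 16 passed an adjusted p of 0.05. The contrast of Sst with Pvalb interneurons gave no value, since no library held 20 Pvalb nuclei. Leaving out the 3 WT libraries of 12 months, a choice made after the data were seen because 2 of them held only 10 and 33 nuclei in the medium spiny gate, left 9 past the threshold. Of the 7 that no longer passed, Mme between D1 and D2 neurons, Ide between precursors and oligodendrocytes and Ece2 between endothelial cells and pericytes each had an adjusted p of 0.0586 by the exact permutation test. Ace had 0.0859 between precursors and oligodendrocytes and 0.0753 between endothelial cells and pericytes. Ide and Ace between choroid plexus and ependymal cells had 0.0987, where 5 libraries allow no exact permutation p under 0.0625. Mme remained past the threshold between medium spiny and other inhibitory neurons, higher in 9 of 9 libraries (difference 0.98, exact permutation test, adjusted p = 0.0130).

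The 5 genes had different patterns over 20 classes. The closest pair was Mme and Ece2, with a Pearson r of 0.61 over class means of log2(CPM + 1), and Ece2 and Ace had −0.23. Among 12835 genes with at least 20 CPM in some class, the most alike to Mme was Casz1 (r = 0.904), a zinc finger transcription factor, followed by Pld5 (0.876) and Zcchc12 (0.858). Ece2 was most like Pnck (0.900), Podxl2 (0.897) and Kcnmb2 (0.875), Ace like Rhod (0.891), Lepr (0.886) and Baiap2l1 (0.871), Ece1 like Tjp1 (0.835), Fry (0.833) and Gm42556 (0.825), and Ide like Pmvk (0.877), Dgkq (0.873) and Zfp30 (0.868). Tjp1 encodes a tight junction scaffold. The class means share libraries and differ in depth, so these values are descriptions.

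The design asks whether the levels differed between 3xTg-AD and WT at each age. The counts of a class were added up in each library for edgeR's quasi-likelihood test, with Benjamini-Hochberg adjustment over all genes of the class. A call needed an adjusted p below 0.05 and a log2FC beyond 0.2 in either direction. At 6 months none of 72 gene and class pairs was called by edgeR or by DESeq2, and 5 had an unadjusted p under 0.05. The background over all genes and classes was 0.835% called and 9.55% with an unadjusted p under 0.05. At 12 months 1 of 69 pairs was called, against a background of 1.2%, and 11 had an unadjusted p under 0.05, against 11.8%. Pooled classes such as all inhibitory neurons contain the finer ones, so the pairs are not independent. Groups of 3 libraries said below not to overlap are described pair by pair, and the share of all genes without overlap is not given. An exact permutation test of 3 against 3 libraries gives no p below 0.1. The shares of members called and of members with an unadjusted p under 0.05 were near those of all genes. Without 3xTg-AD library 10, edgeR called 6 pairs at 12 months, where the share of all genes called was 4.69%. Among them were Mme (1.57) and Ece1 (−0.51) in other Slc17a7 neurons and Ece2 in CA1 and subiculum (1.80) and in CA3 and CA2 neurons (1.56), all as log2FC.

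**Figure D2:**
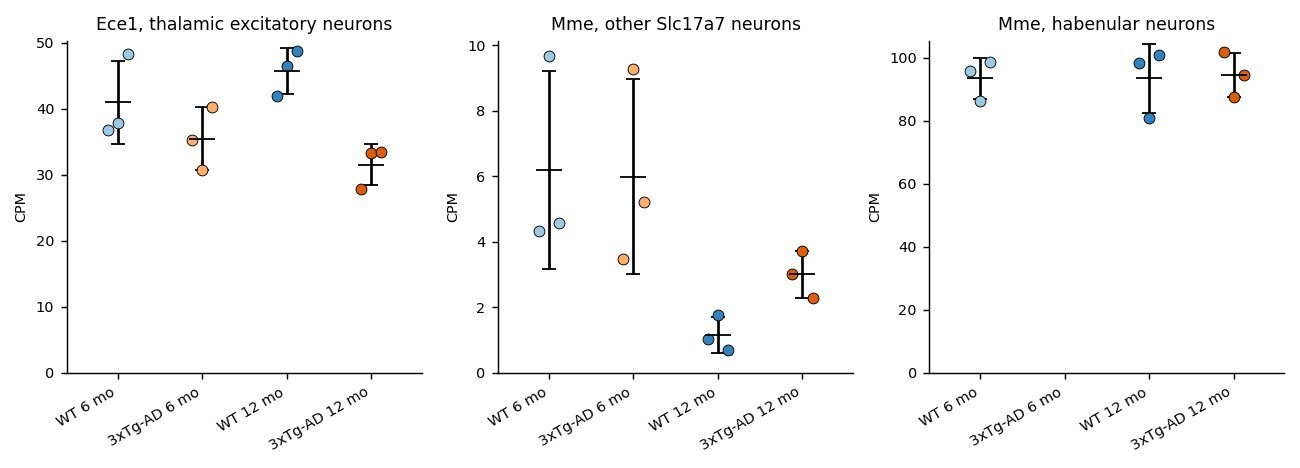
CPM per library, with the mean and SD of each group, for the 2 called pairs, Ece1 in thalamic excitatory neurons and Mme in other Slc17a7 neurons, and for Mme in habenular neurons. Ece1 lies at 27.9 to 33.5 CPM in 3xTg-AD and 41.9 to 48.8 in WT at 12 months, Mme in other Slc17a7 neurons lies at 0.68 to 1.75 in WT at 12 months, and the habenular groups overlap. The habenular 3xTg-AD group of 6 months is not drawn because library 9 held 7 nuclei.

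The pair called at 12 months was Ece1 in thalamic excitatory neurons, which was lower in 3xTg-AD. The WT libraries had 41.9, 46.5 and 48.8 CPM and the 3xTg-AD libraries 27.9, 33.2 and 33.5 CPM. Every 3xTg-AD library lay below every WT library (log2FC −0.48, SE 0.10, edgeR adjusted p = 0.0362, DESeq2 adjusted p = 0.0348), in a class where 1.26% of all genes were called. At 6 months the WT libraries had 36.8, 37.9 and 48.3 CPM and the 3xTg-AD libraries 35.3, 30.8 and 40.3, which overlap (log2FC −0.12, edgeR adjusted p = 0.794). The difference between the ages was not called (interaction −0.36, edgeR adjusted p = 0.762). The call at 12 months was lost when any of 5 of the 6 libraries was left out, at log2FC from −0.51 to −0.42, and with the stricter gate (edgeR adjusted p = 0.0574). The summed CA3 and CA2 markers in this gate were lower in 3xTg-AD at both ages. They lay at 451 to 547 CPM against 634 to 811 in WT at 6 months. At 12 months they lay at 469 to 550 CPM against 686 to 733 in WT. Their part in the result was not tested.

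**Figure D3:**
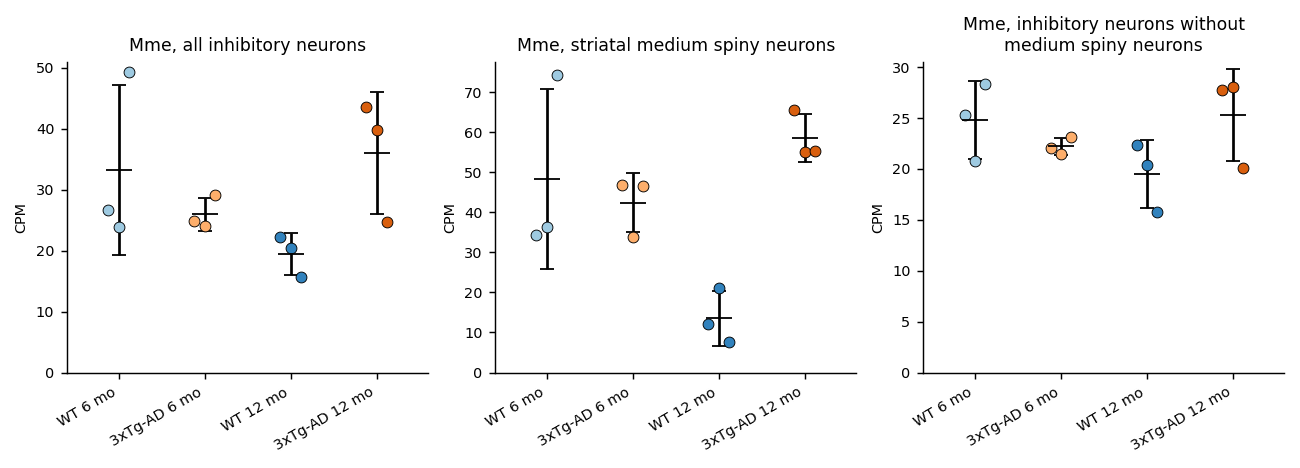
Mme in CPM per library, with the mean and SD of each group, in all inhibitory neurons, in striatal medium spiny neurons and in inhibitory neurons without them. At 12 months the 3xTg-AD and WT libraries are apart in the first and the middle panel, and they overlap once medium spiny neurons are left out (15.8 to 22.3 in WT and 20.1 to 28.1 in 3xTg-AD).

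Mme in all inhibitory neurons was the pair with the smallest adjusted p above the threshold at 12 months. At 12 months the WT libraries had 22.3, 20.4 and 15.7 CPM and the 3xTg-AD libraries 43.6, 39.8 and 24.7. The groups did not overlap (log2FC 1.01, SE 0.26, edgeR adjusted p = 0.0571), and 5.41% of all genes were called in this class. The call depended on the method, with an adjusted p of 0.00269 by DESeq2, which called 11.4% of all genes here, and of 0.00149 by edgeR without 3xTg-AD library 10, which called 18% of them. In the other 5 fits with a library left out, which called 0.262% to 1.38% of all genes here, it did not pass (edgeR adjusted p from 0.0942 to 0.220). At 6 months the difference was −0.34 (edgeR adjusted p = 0.746) and became 0.08 without WT library 11.

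The share of medium spiny neurons among inhibitory nuclei moved with this result. At 12 months it was 0.347%, 4.94% and 1.32% in the WT libraries and 41.9%, 43.4% and 14.3% in the 3xTg-AD libraries. At 6 months it was 16.1%, 20.5% and 45.6% in WT and 12.6%, 20.4% and 26.1% in 3xTg-AD. With medium spiny neurons left out, Mme at 12 months had 22.3, 20.4 and 15.8 CPM in WT and 27.8, 28.1 and 20.1 CPM in 3xTg-AD, which overlap narrowly (log2FC 0.42, SE 0.19, edgeR adjusted p = 0.379). In this class 1.78% of all genes were called. Medium spiny markers in it still summed to 198 to 220 CPM in WT and 252 to 290 in 3xTg-AD at 12 months. Layer 6 corticothalamic markers summed to 334 to 378 CPM in WT and 466 to 555 in 3xTg-AD. Dentate granule markers went the other way, at 83.9 to 126 CPM in WT and 58.5 to 76.9 in 3xTg-AD. The part of these markers in the result was not tested.

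**Figure D4:**
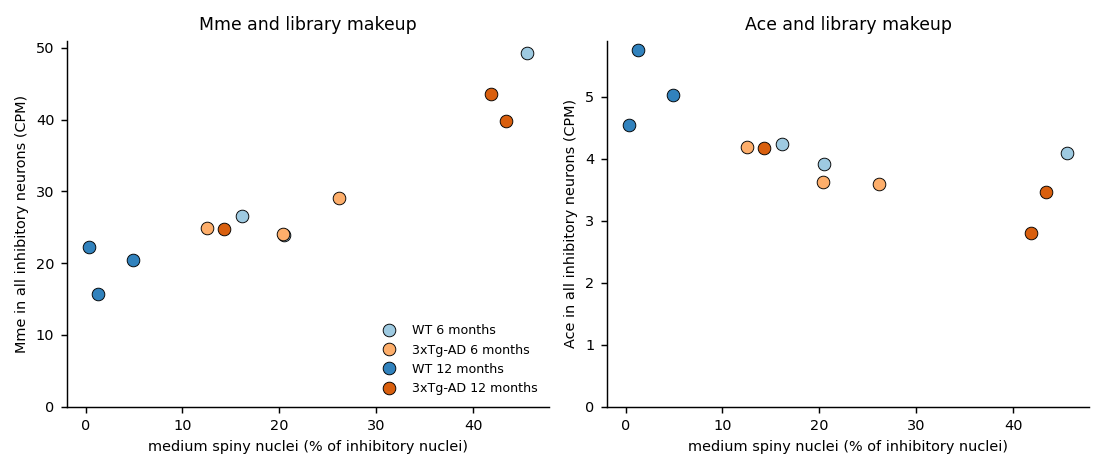
Mme (left) and Ace (right) in all inhibitory neurons, in CPM, against the percent of inhibitory nuclei in the medium spiny gate, with 1 point per library, colored by group. The WT libraries of 12 months lie at 0.347% to 4.94% and every other library at 12.6% or above, and the 3 libraries above 40% have the highest Mme.

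Within medium spiny neurons at 12 months, the WT libraries had 12.0, 21.1 and 7.50 CPM of Mme and the 3xTg-AD libraries 65.5, 55.0 and 55.3. These WT values rest on 10, 151 and 33 nuclei with 1, 21 and 2 Mme UMIs, while the 3xTg-AD libraries had 2129, 2121 and 622 nuclei. The difference was a log2FC of 1.89 (SE 0.31, edgeR adjusted p = 0.172), was called by DESeq2 (adjusted p = 0.00496) and by edgeR without the filter on low counts (adjusted p = 5.01e-07), and was 3.08 without WT library 8 (edgeR adjusted p = 0.0169), the single call among 6 fits with a library left out. Of all genes in this class, edgeR called 0.0166%, DESeq2 0.533%, edgeR without the filter 1.73% and edgeR without WT library 8 2.26%. In that last fit the WT side held only the libraries 4 and 12. The gate was doubtful in the WT libraries 4 and 12. Pde10a, a marker the gate did not use, had 602 and 555 CPM there, against 1912 to 3520 in the other 10 libraries. Of the other unused markers, Foxp1 had 265 and 499 CPM against 1435 to 1983, and Meis2 had 1252 and 787 against 1430 to 1655. Drd1 had 0 CPM in library 4, while its 60.0 in library 12 lay within the 56.9 to 83.8 of the others. Nuclei in the D1 or D2 gate made up 30% and 63.6%, against 70.0% to 77.1%. In WT library 8, where Pde10a had 2569 CPM, Mme had 21.1 CPM against 33.8 to 74.2 in the 3xTg-AD and 6-month WT libraries. At 6 months the WT libraries had 34.4, 36.4 and 74.2 CPM and the 3xTg-AD libraries 46.9, 33.8 and 46.6, which overlap (log2FC −0.21, edgeR adjusted p = 0.893).

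Habenular neurons, with the highest Mme, did not differ beyond their spread at 12 months. The WT libraries had 98.4, 81.0 and 101 CPM and the 3xTg-AD libraries 102, 87.6 and 94.5 (log2FC 0.01, SE 0.17, edgeR adjusted p = 0.995). In whole tissue, a change of Mme per cell and a change in the number of striatal nuclei cannot be told apart.

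Ace and Ece2 were lower in 3xTg-AD in all inhibitory neurons at 12 months, and edgeR called neither with all 6 libraries. Ace had 4.55, 5.03 and 5.76 CPM in WT and 2.80, 3.46 and 4.17 CPM in 3xTg-AD, without overlap (log2FC −0.45, SE 0.18, edgeR adjusted p = 0.170). Ece2 had 97.2, 97.0 and 116 CPM in WT and 62.5, 65.9 and 92.8 CPM in 3xTg-AD, also without overlap (log2FC −0.39, SE 0.12, edgeR adjusted p = 0.0850). Other fits called Ece2, DESeq2 with an adjusted p of 0.0488, edgeR over 12 libraries with 0.0407 and edgeR without 3xTg-AD library 10 with 0.00475. In this class those fits called 11.4%, 8.51% and 18% of all genes. Ace and Ece2 were both low in medium spiny neurons. Without medium spiny neurons, Ace had a log2FC of −0.13 (edgeR adjusted p = 0.808). Ece2 then lay at 97.3, 99.8 and 116 CPM in WT and 87.3, 94.8 and 101 CPM in 3xTg-AD, which overlap. The part of the medium spiny share in these differences was not tested.

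Mme also differed between genotypes in further classes without a call by edgeR with all 6 libraries. In other Slc17a7 neurons at 12 months, Mme had 1.04, 1.75 and 0.68 CPM in WT and 3.01, 3.70 and 2.28 CPM in 3xTg-AD, without overlap. These are low levels, and the pair was called only in the fit without 3xTg-AD library 10. In cholinergic neurons at 12 months, Mme had 39.1 (from 19 nuclei), 19.9 and 20.1 CPM in WT and 29.8, 70.9 and 42.7 CPM in 3xTg-AD, which overlap, from 20 and 91 UMIs (log2FC 0.97, SE 0.44, edgeR adjusted p = 0.610). In thalamic excitatory neurons at 6 months, Mme had 3.87, 4.99 and 3.91 CPM in WT and 2.48, 2.75 and 1.77 CPM in 3xTg-AD, without overlap (log2FC −0.80, SE 0.26, edgeR adjusted p = 0.263). At 12 months the same neurons had 1.63 to 2.38 CPM in WT and 1.89 to 2.82 in 3xTg-AD, which overlap.

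In the edgeR fits with the filter on low counts and all 6 libraries of an age, Ece1 and Ide gave no further calls between genotypes. In all excitatory neurons at 12 months, which contain the thalamic neurons, Ece1 had 37.3, 42.4 and 41.7 CPM in WT and 29.6, 33.0 and 34.99 CPM in 3xTg-AD, without overlap (log2FC −0.27, SE 0.08, edgeR adjusted p = 0.188). In pericytes and smooth muscle cells at 12 months, Ece1 had 304, 264 and 279.7 CPM in WT and 276, 149.6 and 108 CPM in 3xTg-AD, from 64 and 36 UMIs (log2FC −0.80, SE 0.35, edgeR adjusted p = 0.595). The lowest WT and the highest 3xTg-AD library of the pericytes overlap. In oligodendrocytes at 6 months, Ece1 had 8.49, 7.06 and 6.27 CPM in WT and 2.14, 4.20 and 4.23 CPM in 3xTg-AD, without overlap (log2FC −1.03, SE 0.30, edgeR adjusted p = 0.191, and 0.0436 without the filter on low counts). In astrocytes, with a larger number of UMIs, the WT and 3xTg-AD libraries of 12 months lay at 53.4 to 65.3 and 51.3 to 69.5 CPM of Ece1. In CA1 and subiculum neurons at 12 months, Ece2 had 3.87, 8.54 and 5.46 CPM in WT and 26.0, 16.7 and 12.4 CPM in 3xTg-AD, without overlap but from 23 and 36 UMIs (log2FC 1.48, SE 0.43, edgeR adjusted p = 0.266). Ide had log2FC between −0.33 and 0.26 over 18 classes at 6 months and between −0.27 and 0.25 over 19 classes at 12 months, with no unadjusted p under 0.05 at either age.

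**Figure D5:**
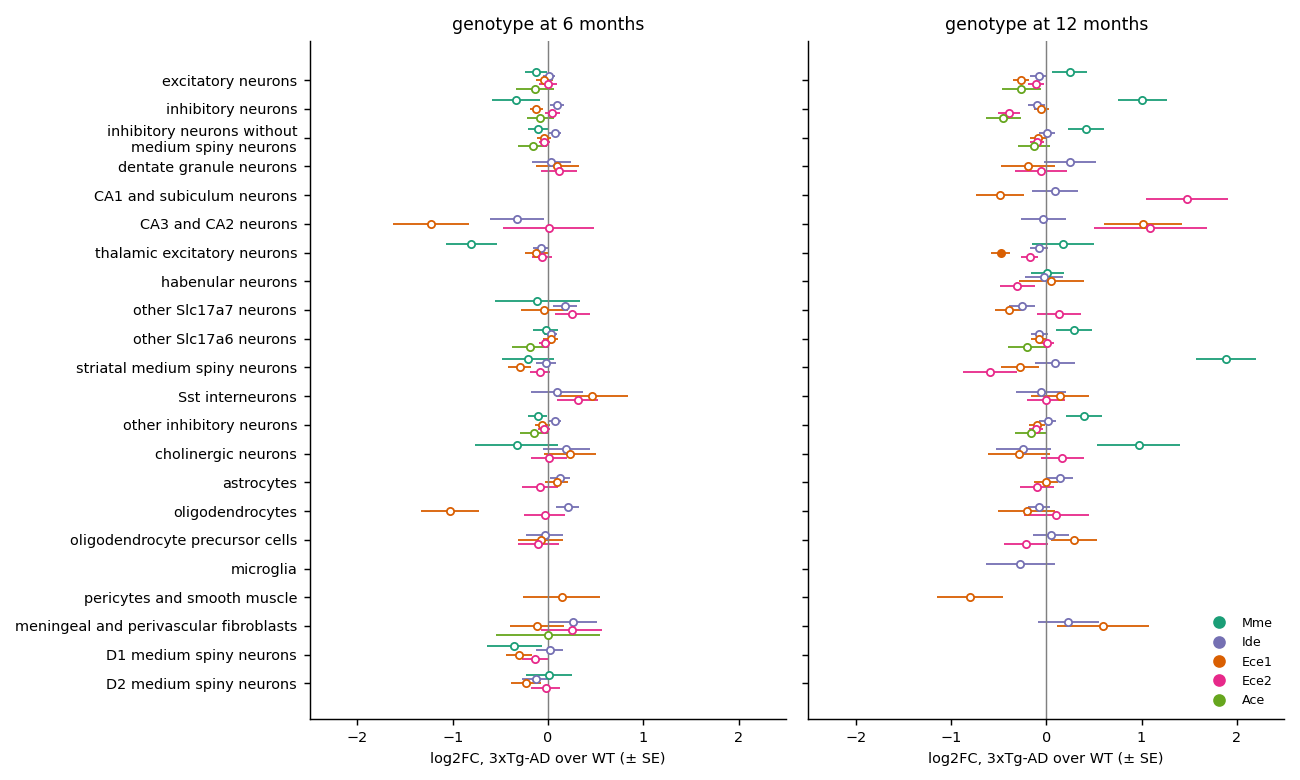
log2FC of 3xTg-AD over WT for each of the 5 genes in each class where edgeR tested at least 1 of them, at 6 and at 12 months, with bars of 1 SE. Open points are not called, the filled point is Ece1 in thalamic excitatory neurons at 12 months at −0.48, and Mme at 12 months spans 0.01 to 1.89.

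With age, 1 of 68 pairs was called in WT, against a background of 0.289%, and 11 had an unadjusted p under 0.05, against 8.09%. Mme gave 6 of these 11, over 10 classes that in part contain each other, with a median log2FC of −0.68 (−2.41 to 0.04). In 3xTg-AD none of 74 was called by edgeR or DESeq2, against a background of 0.0428%, and 6 had an unadjusted p under 0.05, against 5.28%. Without 3xTg-AD library 10, where edgeR called 2.09% of all genes, Mme (log2FC 0.75) and Ece2 (−0.35) were called in all inhibitory neurons. The pair called in WT was Mme in other Slc17a7 neurons, where 2.76% of all genes were called. These are excitatory nuclei with more Slc17a7 than Slc17a6 that passed no gate of a named class. CA3 and CA2 markers still summed to 405 to 493 CPM in WT at 6 months and 464 to 501 at 12 months in these nuclei. At 6 months the WT libraries had 4.31, 9.69 and 4.58 CPM, from 71 UMIs, and at 12 months 1.04, 1.75 and 0.68 CPM, from 11 UMIs (log2FC −2.41, SE 0.51, edgeR adjusted p = 0.0339). The 3xTg-AD libraries had 3.47, 9.29 and 5.21 CPM at 6 months and 3.01, 3.70 and 2.28 at 12 months. The call held in 2 of 6 fits with a library left out, at log2FC from −2.76 to −1.90, and not when all 12 libraries were fitted together (edgeR adjusted p = 0.0635). Habenular markers in this gate summed to 128 to 249 CPM in WT at 6 months and 83.9 to 102 at 12 months, and medium spiny markers to 211 to 349 and 144 to 168. Thalamic markers in the gate went the other way, at 481 to 973 CPM in WT at 6 months and 986 to 998 at 12 months. The part of these markers in the result was not tested.

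The genotype difference did not change with age past the threshold for any of 66 pairs by edgeR, against a background of 0.217%. Of these pairs 9 had an unadjusted p under 0.05, against 8.41%. Mme gave 5 of these 9, over 9 classes that in part contain each other, with a median interaction of 0.98 (0.32 to 2.11). Of the 66 pairs DESeq2 called 1, against 0.92% of all genes in all classes and 3.98% in all inhibitory neurons. That pair was Mme in all inhibitory neurons, with an interaction of 1.34 (SE 0.41, edgeR adjusted p = 0.134, DESeq2 adjusted p = 0.0356). In medium spiny neurons it was 2.11 (SE 0.55, edgeR adjusted p = 0.339), and without them it was 0.52 (SE 0.24, edgeR adjusted p = 0.644). Ece1 in CA3 and CA2 neurons had an interaction of 2.27 (edgeR adjusted p = 0.774), with log2FC of −1.23 at 6 months and 1.02 at 12 months. At 6 months it had 47.9 (from 12 nuclei), 20.3 and 41.8 CPM in WT and 11.8, 13.4 and 13.9 CPM in 3xTg-AD, and at 12 months 13.5, 14.2 and 7.56 CPM in WT and 28.6, 30.6 and 16.4 CPM in 3xTg-AD. The groups were apart at both ages, in opposite directions, on 28 to 51 UMIs per group, and edgeR called neither (adjusted p = 1.00 and 0.787).

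A list of 17 genes held other proteases known to cleave amyloid-β, together with Acp3, which encodes an acid phosphatase. Of these, 16 were in the matrices, and edgeR tested 13 at 6 months and 14 at 12 months. This list and those below were chosen with earlier results of these data known, so their shares of calls are descriptions. At 6 months 2 of 149 pairs were called, 1.34% of them, against 0.835% of all genes. Plat, which encodes tissue plasminogen activator, rose in oligodendrocytes (log2FC 0.90, SE 0.15, edgeR adjusted p = 0.0129) and fell in endothelial cells (log2FC −3.06, SE 0.45, edgeR adjusted p = 0.00688). At 12 months edgeR called none of 151, against 1.2% of all genes, 20 had an unadjusted p under 0.05 (13.2%, against 11.8% of all genes), and DESeq2 called 1, against 2.48% of all genes. With age in WT, Ctsl, the lysosomal protease cathepsin L, rose in microglia (log2FC 2.23, SE 0.45, edgeR adjusted p = 0.00993), the single pair of 149 called by edgeR (0.671%, against 0.289% of all genes). In that comparison 33 of the pairs had an unadjusted p under 0.05 (22.1%, against 8.09% of all genes) and DESeq2 called 5, against 0.928% of all genes. The median log2FC of the list was 0.04 at 6 months and −0.04 at 12 months, and those of all genes lay between −0.01 and 0.03 in every class. Relatives of the members in their enzyme families gave no call by edgeR in 114 pairs at 6 months or 108 at 12 months, against 0.835% and 1.2% of all genes. An unadjusted p under 0.05 was found for 6 and 5 of them (5.26% and 4.63%, against 9.55% and 11.8% of all genes), and DESeq2 called 0 and 1.

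Precursors of peptides that these enzymes are known to cleave were called in 12 of 95 pairs at 12 months, 12.6% of them, all higher in 3xTg-AD. The shares of all genes called were 1.2% in all classes and 5.41% in all inhibitory neurons, where 5 of the calls lay. The list was chosen with earlier results of these data known, so its share is a description and no test of the list. In all inhibitory neurons the precursors of striatal peptides rose, Tac1 (log2FC 2.32, SE 0.21), Pdyn (2.19, SE 0.37) and Penk (2.15, SE 0.41), with edgeR adjusted p of 0.00141, 0.0188 and 0.0262. Npy (0.97, SE 0.20) and Edn1, the precursor of endothelin, (2.24, SE 0.37) rose there too, with edgeR adjusted p of 0.0330 and 0.0173. Without medium spiny neurons, Tac1 (0.98), Npy (1.38) and Edn1 (2.27) were still called by edgeR, with adjusted p of 0.0201, 0.0110 and 0.0409, while Pdyn and Penk were not. Summed medium spiny markers in that gate were still higher in 3xTg-AD at 12 months, at 252 to 290 CPM against 198 to 220. Layer 6 corticothalamic markers were higher too, at 466 to 555 CPM against 334 to 378. Dentate granule markers were lower, at 58.5 to 76.9 CPM against 83.9 to 126. The part of these markers in the calls was not tested. Penk also rose in oligodendrocytes (2.44, SE 0.45, edgeR adjusted p = 0.0224) and Tac1 in thalamic excitatory neurons (1.48, SE 0.32, edgeR adjusted p = 0.0437), and the part of free RNA in these calls was not tested. Several of the 12 pairs repeat a gene in overlapping classes, and the striatal share above moved with them. The median log2FC of the list was 0.31 at 12 months. At 6 months 1 of 98 pairs was called, 1.02% against 0.835% of all genes, and it was lower in 3xTg-AD, Tac1 in oligodendrocyte precursor cells (log2FC −1.83, SE 0.43, edgeR adjusted p = 0.0298). With age in WT 2 of 89 pairs were called, 2.25% against 0.289% of all genes. Npy fell in Sst interneurons (log2FC −1.52, SE 0.31, edgeR adjusted p = 0.0305). Cck rose in other Slc17a7 neurons (log2FC 0.68, SE 0.15, edgeR adjusted p = 0.0398).

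Among 9 inhibitors and regulators, Serpina3n, a secreted inhibitor of serine proteases that accompanies amyloid deposits, fell in 6 of the classes at 12 months, which were all 6 calls of 106 pairs (5.66%, against 1.2% of all genes). Its log2FC ran from −1.61 in other Slc17a6 neurons to −2.98 in oligodendrocytes (SE 0.27, edgeR adjusted p = 0.000175). The remaining classes were all excitatory neurons, which contain the other Slc17a6 neurons, and overlapping gates of inhibitory neurons. Of all genes, edgeR called 5.41% in all inhibitory neurons and 1.78% without medium spiny neurons. The part of free RNA in these calls was not tested. At 6 months Agtr1a, the receptor of the peptide that Ace makes, rose in other inhibitory neurons (log2FC 1.62, SE 0.25, edgeR adjusted p = 0.00799) and in inhibitory neurons without medium spiny neurons. The latter gate contains the former, and these were 2 calls of 105 pairs (1.9%, against 0.835% of all genes). Mas1, a receptor for a shorter angiotensin peptide, fell with age in other Slc17a7 neurons of WT (log2FC −1.37, SE 0.25, edgeR adjusted p = 0.0159), and its genotype difference changed with age there (interaction 2.51, SE 0.49, edgeR adjusted p = 0.0264). These were the single calls of 102 and 104 pairs (0.98% and 0.962%, against 0.289% and 0.217% of all genes). In this class edgeR called 2.76% of all genes with age in WT and 322 of 13249 under the interaction.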

How the data were processed

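The authors prepared 12 libraries of sorted hippocampal nuclei with 10x 3′ v3 chemistry and aligned the reads with Cell Ranger 6.1.1 to mm10, per the submitters' processing notes and methods. The deposited values are raw UMI counts per gene and nucleus, before ambient RNA removal. The study's filters were applied here: 500 to 10000 genes per nucleus, no more than 5% of UMIs from mitochondria, with the log10 of genes over 0.8 times the log10 of UMIs. The 5 members and all gene lists were chosen with earlier results of these data known, and the gate markers and their cutoffs were set after marker detection was seen. Nuclei of a class needed marker UMIs above a cutoff and few of any second class. No doublet caller was run, and the gate on a second class and an alternative without the nuclei above the 95th percentile of UMIs stand in its place.

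CPM is the UMIs of a gene over all UMIs of the class in a library, for libraries with at least 20 nuclei in class levels and at least 10 in comparisons of groups. Classes were ordered if at least 6 libraries qualified. Neighbours and class contrasts were compared by two-sided exact sign-flip permutation tests of log2(CPM + 1) paired by library. Counts were summed per class and library, with at least 10 nuclei in each, and tested with edgeR 4.0.16 in R 4.3.3 (quasi-likelihood test, TMM, filterByExpr) after groups were set from the labels. All p are two-sided. DESeq2 1.42.0 (Wald test), RLE size factors, no filter on low counts, 12 libraries in 1 fit, a stricter gate, unfiltered nuclei and each library left out were alternatives. The named genes are the 5 members, called genes of the lists, the 3 genes most alike per member by Pearson r, and genotype checks. The edgeR step was tested on simulated data. Strand and overlap settings of the counting are not given in the sources used here. An allele of the 3xTg-AD strain and its check are not reported here.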

Additional observations from a re-analysis of the deposited data

How the results depend on the processing

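The highest class of each of the 5 genes was the same under a pseudocount of 5 CPM, thinned shares and the stricter gate. The neighbour pairs past the threshold numbered 2 for Mme, 1 for Ide, 2 for Ece1, 2 for Ece2 and 1 for Ace. They fell to 1 each for Mme, Ece1 and Ece2 with the pseudocount of 5, to 0, 0, 0, 1 and 0 with thinned shares in the order Mme, Ide, Ece1, Ece2 and Ace, and to 0 for Ace with the stricter gate, under which Ece2 rose to 3. Class contrasts past the threshold numbered 9 instead of 16 without the 3 WT libraries of 12 months, added after the data were seen, where fewer libraries also raise the smallest p.

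Members called at 6 months were 0, and 1 without the filter on low counts. That fit called 1.12% of all genes, against 0.835% in the main fit. At 12 months they were 1, and 3 without the filter, 4 with DESeq2, 2 without nuclei of very high UMI count, 2 with 12 libraries in 1 fit and 0 to 6 with a library left out. In the same order these alternatives called 1.97%, 2.48%, 1.3%, 1.89% and 0.295% to 4.69% of all genes, against 1.2% in the main fit. With age in WT they were 1, and 2 without the filter, 0 with 12 libraries in 1 fit and 0 to 1 with a library left out. The shares of all genes called there were 0.289%, 0.875%, 0.324% and 0.109% to 0.532%. With age in 3xTg-AD they were 0, and 1 without the filter and 0 to 2 with a library left out. The shares of all genes called there were 0.0428%, 0.412% and 0.0123% to 2.09%. Under the interaction they were 0, and 1 with DESeq2, where 0.217% and 0.92% of all genes were called.

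Mme in all inhibitory neurons at 12 months had a log2FC of 1.01, and passed the threshold at 1.02 without the filter (edgeR adjusted p = 0.0282), 1.01 with DESeq2, 1.04 with the stricter gate (0.0497) and 1.05 without nuclei of very high UMI count (0.0449), while 1 of 6 fits with a library left out passed, at 0.82 to 1.24. In medium spiny neurons it had 1.97 without the filter, 1.93 with DESeq2 and 1.62 to 3.08 with a library left out, where 1 of 6 fits passed. Mean levels with medium spiny and other inhibitory neurons weighted equally differed by 1.32 in log2(CPM + 1) at 12 months (exact permutation test, p = 0.1, the smallest that 3 against 3 allows). In WT this mean leans on medium spiny levels from 1, 21 and 2 Mme UMIs, so it does not settle the part of composition. The same measure gave −0.13 at 6 months (exact permutation test, p = 0.8). At 6 months Mme reversed from −0.34 to 0.082 in all inhibitory neurons and from −0.21 to 0.28 in medium spiny neurons without WT library 11, and the lowest values with a library left out were −0.53 and −0.40. The causes were not tested. Ace in all inhibitory neurons kept its direction under every alternative run. No paired analysis was possible because the groups share no replicate numbers.

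Depth limits the 5 genes in the endothelial, pericyte and ependymal classes, where a library holds a few UMIs of most of them. Ece1 had more, with 178 UMIs in pericytes and smooth muscle and 109 in endothelial cells over 12 libraries.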
